A study of Mus musculus with 28 samples.

Results

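Caspases are cysteine proteases that carry out apoptosis and inflammatory cell death, and 6 of their genes (Casp1, Casp2, Casp6, Casp8, Casp9 and Casp12) are described here with the genes of 2 adaptors, Apaf1 and Pycard, in juvenile mouse ovaries after a dose of ionizing radiation (IR) that kills primordial oocytes. The 8 genes were taken by symbol, by a rule that uses no measured value, from 44674 genes in the bulk RNA-seq table, of which 26790 passed the count filter and were tested, all 8 of them included. Bulk libraries came from the paired ovaries of single females aged 7 to 9 days. C57BL/6J is the strain the study names for its purchased mice, and no strain background is named there for the mutants. There were 24 such libraries in 4 groups of 6: wild-type without irradiation, wild-type 6 h after 0.5 Gy of gamma radiation, and the same 2 treatments in Chek2-/- females, which carry the Chek2 tm1b(EUCOMM)Hmgu allele in every cell and so lack the checkpoint kinase CHEK2 in the soma as well as in the oocytes. Single-cell RNA-seq gave 1 library for each of the 4 conditions, each from the pooled ovaries of 4 females aged 7 days, so single-cell values carry no replicate error and were not tested.

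Damaged cells can activate caspases by several routes. In the intrinsic route, cytochrome c released from mitochondria binds APAF1, which assembles into the apoptosome and activates caspase 9. In the extrinsic route, death receptors recruit FADD and caspase 8, and another platform, of PIDD1 and CRADD activates caspase 2. Executioner caspases, caspase 6 among them, then cleave cell proteins. Caspase 1 and the mouse caspase 12 belong to the inflammatory branch, in which PYCARD (ASC) links danger sensors to caspase 1. In the ovary, primordial oocytes are the cells known to die by apoptosis after low doses of radiation, and the kinase CHEK2 is required for that death.

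The 6 caspases share a cysteine at the active site, within a QACXG motif. The stretches of coding sequence around it are shown because they are what makes these genes 1 family, and because their likeness bears on whether reads can be told apart. Each was found once in the longest reading frame of the gene's GENCODE vM21 transcripts, has 27 bases, and is written 5′ to 3′ with the cysteine codon in capitals.
Casp1: attattcaggcaTGCcgtggagagaaa
Casp2: ttcatccaagcaTGTcgtggagatgag
Casp6: atcatccaggccTGTcggggtagccag
Casp8: ttcattcaggctTGCcaaggaagtaac
Casp9: ttcatccaggccTGCggtggtgagcag
Casp12: atcatgcaggccTGCagaggcagatat

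Between any pair of caspases, 14 to 20 of the 27 bases were identical. The lowest identity was between Casp2 and Casp12, and the highest was shared by Casp2 with Casp9 and Casp6 with Casp9. Over whole transcripts, the share of 31-base words found in transcripts of any other gene ran from 0% for Casp1, Casp2 and Casp12 to 8.36% for Casp8. The genes that share words with Casp8 include Gm20257, Pdzrn3, Gm37115 and Samd5, none of which is a caspase. The estimated counts of Casp8 therefore carry some uncertainty in how shared reads were split.

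In the mouse genome (GRCm38) the 8 genes lie on 7 chromosomes. Casp1 (chr9:5298517-5307265) and Casp12 (chr9:5345430-5373032) lie close together on the plus strand. Casp2 lies at chr6:42264985-42282508, Casp6 at chr3:129901425-129914103, Casp8 at chr1:58795374-58847503 and Casp9 at chr4:141793612-141815976, all on the plus strand. Apaf1 (chr10:90989311-91082770) and Pycard (chr7:127989708-127993867) are on the minus strand. The promoters of these 2 genes are printed because they are the members with the clearest differences after irradiation. Each window runs from 250 bases before the annotated start to 50 bases after it, on the gene's own strand, from RefSeq on GRCm38.p6 (Apaf1 chr10:91082694-91082993, Pycard chr7:127993818-127994117). Capitals mark a match to the half-site of p53 family proteins.

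Apaf1: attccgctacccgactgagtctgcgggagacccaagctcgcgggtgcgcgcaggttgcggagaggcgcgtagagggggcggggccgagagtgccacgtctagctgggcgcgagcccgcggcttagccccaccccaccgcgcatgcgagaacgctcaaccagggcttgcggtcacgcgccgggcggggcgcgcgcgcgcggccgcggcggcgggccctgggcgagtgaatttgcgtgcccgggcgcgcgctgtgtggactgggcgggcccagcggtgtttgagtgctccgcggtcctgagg
Pycard: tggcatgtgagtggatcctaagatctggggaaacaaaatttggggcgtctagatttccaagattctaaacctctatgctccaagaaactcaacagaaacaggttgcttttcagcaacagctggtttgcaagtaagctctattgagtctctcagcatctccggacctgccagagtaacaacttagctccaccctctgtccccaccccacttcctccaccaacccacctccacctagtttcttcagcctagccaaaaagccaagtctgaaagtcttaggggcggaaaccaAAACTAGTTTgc

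The half-site of 10 bases (the p53 half-site consensus, which reads the same on both strands) was matched in 2745 of 32851 RefSeq promoter windows of this length, 8.36%. Promoter windows of all 8 members were found, and 1 of them, that of Pycard, held a match, which began 39 bases after the start. No other member had a match in this window. A match is a description of letters and does not show binding.

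Bulk libraries held between 17824920 and 32605519 counts. Chek2, the deleted gene, averaged 22.4 CPM (counts scaled to library size with TMM factors) in non-irradiated wild-type and 3.75 CPM in non-irradiated Chek2-/- ovaries, without overlap (log2 difference −2.58, SE 0.10, edgeR adjusted p = 7.45e-15). Defining markers of oocytes and of the somatic cells were present in every group, some at levels that differed between whole groups. Median Sycp3 was 37.1 and 27.8 CPM in non-irradiated and irradiated wild-type ovaries, and 58.4 and 55.0 CPM in Chek2-/- ovaries. Gdf9 medians were 685, 693, 509 and 526 CPM in the same order. Medians of the summed fibroblast markers were 5007, 5049, 4199 and 4173 CPM. The part of these differences in the results was not tested. 5 libraries stood apart in their marker sums. Irradiated wild-type replicate 3 and irradiated Chek2-/- replicate 2 had summed levels of 6 neutrophil markers of 1193 and 1263 CPM, against 0.805 to 13.9 CPM in the other 22 libraries, and the 2 highest sums of 10 macrophage markers, 95.6 and 110.3 CPM against 33.2 to 68.0 CPM. Replicate 6 of both Chek2-/- groups had sums of 8 oocyte markers of 1058 and 1188 CPM, against 1905 to 2499 CPM in the other 22. Non-irradiated Chek2-/- replicate 5 and, again, irradiated Chek2-/- replicate 2 had sums of 6 erythroid markers of 10445 and 7047 CPM, against 198 to 926 CPM in the other 22. In bulk tissue, fewer cells of a type and less RNA per cell cannot be told apart.

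Apaf1 was the 1 member of 8 called after irradiation of wild-type ovaries, and 4 (Apaf1, Pycard, Casp2 and Casp1) had an unadjusted p under 0.05 in edgeR, as 11.4% of all genes did. At the same threshold (Benjamini-Hochberg adjusted p of at most 0.05 in edgeR's quasi-likelihood test) 2.41% of all genes tested were called. No member was called after irradiation of Chek2-/- ovaries by edgeR, DESeq2 or limma's voom, where edgeR called 0.0112% of all genes. In edgeR 0 members had an unadjusted p under 0.05 there, against 4.4% of all genes. The median log2 change of the 8 members was 0.0929 in wild-type ovaries, against −0.00409 over all genes tested, and −0.0115 in Chek2-/- ovaries, against 0.

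Apaf1, the scaffold of the apoptosome, was at 34.7, 36.6 and 41.5 CPM (lowest, median and highest of 6 libraries) in non-irradiated wild-type ovaries and at 43.9, 51.1 and 51.6 CPM in irradiated wild-type ovaries. All 6 irradiated libraries lay above all 6 non-irradiated ones, as they did for 1.68% of the genes tested. In Chek2-/- ovaries Apaf1 was at 37.1, 41.1 and 43.7 CPM without irradiation and at 36.7, 43.3 and 46.4 CPM after it, and these groups overlapped. Means were 36.9 ± 2.44 and 49.9 ± 2.99 CPM in wild-type and 40.9 ± 2.27 and 42.4 ± 3.54 CPM in Chek2-/- ovaries (SD, n = 6). The fitted increase in wild-type ovaries was 1.35-fold (log2 0.44, SE 0.06, adjusted p = 1.92e-05) and in Chek2-/- ovaries the log2 difference was 0.05 (SE 0.06, adjusted p = 1). The wild-type change exceeded the Chek2-/- change by 0.39 on the log2 scale (SE 0.08, adjusted p = 0.0127 for the interaction), a comparison in which 1.03% of all genes were called. Without the libraries high in neutrophil markers the wild-type change of Apaf1 was log2 0.44 (adjusted p = 8.48e-05) and the interaction 0.40 (adjusted p = 0.0238). Without replicate 6 of both Chek2-/- groups the interaction was 0.38 (adjusted p = 0.0205).

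Casp9, the initiator that the apoptosome activates, was at 33.9, 37.7 and 41.8 CPM in non-irradiated and at 33.4, 35.9 and 39.6 CPM in irradiated wild-type ovaries. The ranges overlapped almost fully, with a log2 difference of −0.06 (SE 0.05, adjusted p = 0.801). Casp9 in Chek2-/- libraries ran from 32.9 to 36.6 CPM without irradiation and from 34.7 to 37.4 CPM after it. Apaf1 and its partner caspase thus had different readouts at the RNA level, with a called change for the scaffold and none for the protease.

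Casp2, the caspase of the PIDD1 platform, was at 55.1, 63.4 and 67.8 CPM in non-irradiated and at 55.8, 57.6 and 60.9 CPM in irradiated wild-type ovaries. The irradiated libraries lay in the lower part of the non-irradiated range, and the log2 difference of −0.11 (SE 0.05, unadjusted p = 0.0331, adjusted p = 0.365) did not pass the test. Casp2 medians in Chek2-/- ovaries were 64.1 CPM without and 60.7 CPM with irradiation, with overlapping ranges.

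Casp8, the initiator of the death receptor route, was at 30.8, 35.0 and 40.1 CPM in non-irradiated and at 32.9, 36.3 and 43.5 CPM in irradiated wild-type ovaries (log2 difference 0.09, SE 0.09, adjusted p = 0.827). The Chek2-/- libraries held 36.5, 40.1 and 52.0 CPM without irradiation and 34.6, 38.4 and 51.1 CPM after it. The highest value in each Chek2-/- group came from replicate 6, the libraries low in oocyte markers, where the sums of the 7 epithelial markers found in the table were 1220 and 1043 CPM against 446 to 1087 CPM in the other 22 libraries. The part of this marker difference in the result was not tested.

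Casp6, an executioner caspase, was the member with the most even medians, at 60.2 and 63.4 CPM in wild-type and at 60.5 and 60.9 CPM in Chek2-/- ovaries (each pair without and with irradiation). Its wild-type log2 difference was 0.04 (SE 0.15, adjusted p = 0.975). The lowest values of Casp6 in the Chek2-/- groups, 35.8 and 35.0 CPM, came again from replicate 6, with the other 5 libraries of each group at 47.6 CPM or more.

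Pycard, the inflammasome adaptor, was at 1.82, 2.22 and 2.87 CPM in non-irradiated and at 2.17, 2.88 and 6.20 CPM in irradiated wild-type ovaries, from 25 to 155 counts per library over all groups. The groups overlapped, and the fitted increase of 1.56-fold (log2 0.64, SE 0.25, unadjusted p = 0.0166) had an adjusted p of 0.259. The highest library was irradiated wild-type replicate 3, one of the pair high in neutrophil markers, and without that pair the log2 difference was 0.40 (adjusted p = 0.517). The next highest, replicate 4 at 4.54 CPM, had the highest epithelial marker sum of the wild-type libraries, 1087 CPM, whose part in the result was not tested. In Chek2-/- ovaries Pycard was at 1.11, 1.53 and 2.01 CPM without and at 0.884, 1.44 and 2.69 CPM with irradiation (log2 difference 0.01, adjusted p = 1). Its interaction was 0.63 on the log2 scale (SE 0.36, adjusted p = 0.659).

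Casp1, the inflammasome protease, was close to the limit of detection, with 3 to 47 counts per library. It was at 0.0931, 0.235 and 0.509 CPM in non-irradiated and at 0.106, 0.335 and 1.88 CPM in irradiated wild-type ovaries. The 1.88 CPM was in replicate 3, high in neutrophil markers, and the other 5 irradiated libraries reached at most 0.542 CPM. The fitted log2 difference was 1.22 with that library (SE 0.59, adjusted p = 0.434) and 0.34 without both libraries of this kind (adjusted p = 0.942). The part of neutrophil content in the result was not tested.

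Casp12, which lies at the endoplasmic reticulum, was at 12.3, 13.9 and 15.7 CPM in non-irradiated and at 13.3, 15.4 and 16.7 CPM in irradiated wild-type ovaries (log2 difference 0.09, SE 0.14, adjusted p = 0.916). In irradiated Chek2-/- ovaries 1 library, replicate 6, was at 21.8 CPM, with the other 5 between 9.59 and 15.0 CPM.

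**Figure D1:**
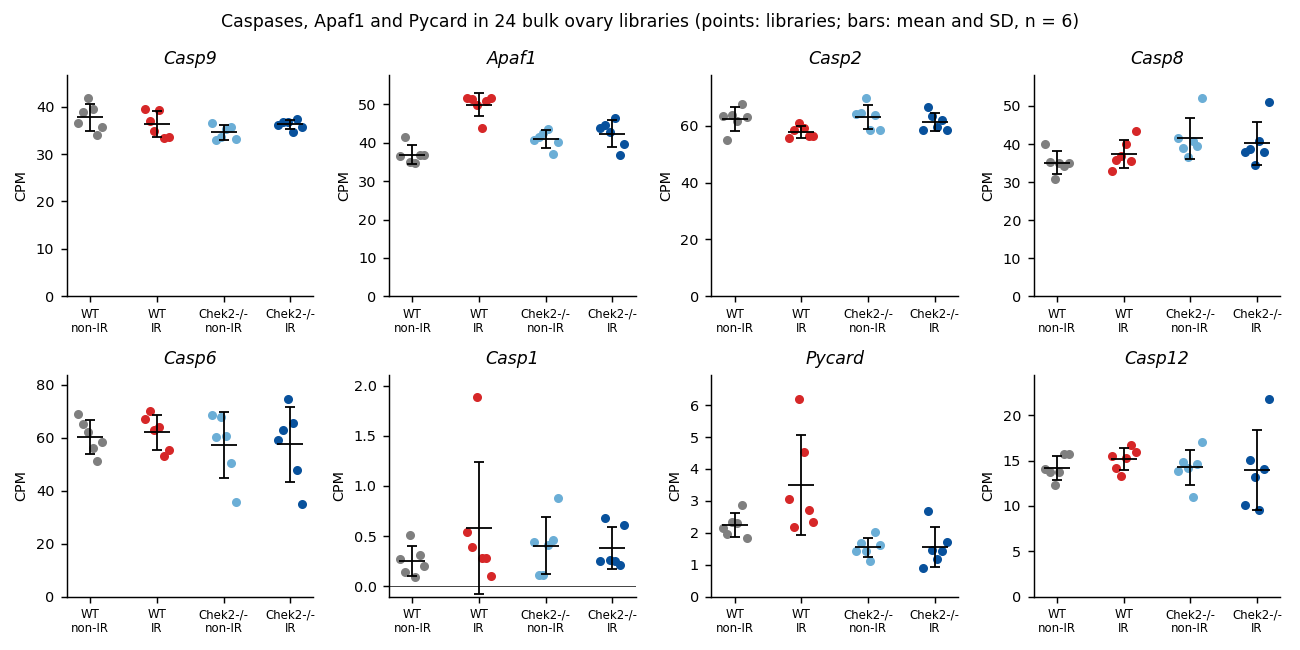
Level of each member (vertical axis, CPM) in the 24 bulk libraries by group, with points for libraries and bars for the mean and SD of 6. Apaf1 has its irradiated wild-type libraries, from 43.9 to 51.6 CPM, above every non-irradiated wild-type library, while the groups overlap for the other 7 members.

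**Figure D2:**
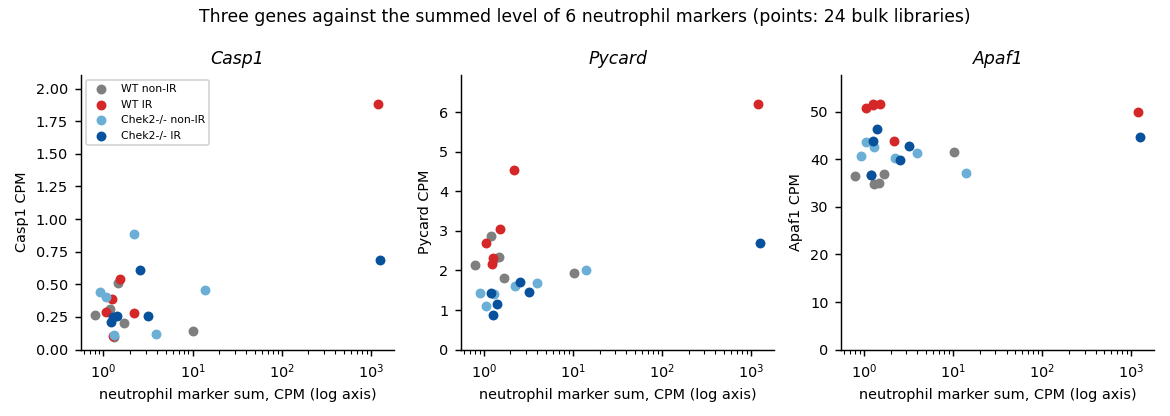
Levels of Casp1, Pycard and Apaf1 (vertical axes, CPM) against the summed level of 6 neutrophil markers (horizontal log axis, CPM) in the 24 bulk libraries, coloured by group. The 2 libraries at 1193 and 1263 CPM on the horizontal axis include the highest Casp1 value, 1.88 CPM, and the highest Pycard value, 6.20 CPM.

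Without irradiation, no member was called between Chek2-/- and wild-type ovaries by edgeR, DESeq2 or limma's voom, though 4 had an unadjusted p under 0.05 in edgeR, as 21.6% of all genes did. At an adjusted p of at most 0.05, 5.34% of all genes were called in this comparison. The largest of these 4 log2 differences was that of Pycard (−0.54, SE 0.25, adjusted p = 0.22), followed by Casp8 (0.24, SE 0.09, adjusted p = 0.112), Apaf1 (0.15, SE 0.06, adjusted p = 0.125) and Casp9 (−0.13, SE 0.05, adjusted p = 0.154). Without replicate 6 of both Chek2-/- groups the difference of Casp8 was 0.17 (adjusted p = 0.136).

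Levels of different genes were compared per kilobase of the union of all annotated exons of a gene. Lengths of the expressed transcripts were not used. A union over many transcript forms, such as the 3.8 kilobases of Pycard, can lower a value. In non-irradiated wild-type ovaries the order was Casp8 (12.1 CPM per kilobase), Casp6 (10.8), Casp2 (8.87), Casp9 (7.25), Apaf1 (4.09), Casp12 (3.70), Pycard (0.589) and Casp1 (0.169). The apoptotic caspases were thus all above their inflammatory relatives on this scale.

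The 3 genes whose levels followed Apaf1 most closely over the 24 libraries, among 15955 genes of at least 1 CPM on average, were Csnk1g1 (Pearson r of log2 CPM 0.889), Trp53inp1 (0.888) and Cdkn1a (0.875). Cdkn1a encodes the cell cycle inhibitor p21. All 3 rose in irradiated wild-type ovaries, by 0.26, 1.23 and 1.67 on the log2 scale (adjusted p = 0.000135, 1.84e-09 and 2.48e-09). The libraries fall into groups, so these correlations describe the shared pattern and carry no p.

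Of 37 genes that act with the members, 4 rose and 1 fell in irradiated wild-type ovaries, where 2.41% of all genes were called and 1.53% were called higher, and 12 had an unadjusted p under 0.05, as 11.4% of all genes did. Their median log2 change was 0.105, against −0.00409 over all genes. None was called in Chek2-/- ovaries, where 1 had an unadjusted p under 0.05 in edgeR, as 4.4% of all genes did.

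Pidd1, which encodes the platform protein that activates caspase 2, was at 6.13, 8.30 and 9.19 CPM in non-irradiated and at 15.8, 18.5 and 22.6 CPM in irradiated wild-type ovaries. These groups did not overlap, and the increase was 2.37-fold (log2 1.25, SE 0.13, adjusted p = 3.75e-07). In Chek2-/- ovaries its means were 7.65 and 8.54 CPM, and the interaction was 1.09 (adjusted p = 0.00105). Cradd, the other gene of this platform, was not called.

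Tnfrsf10b, a death receptor upstream of caspase 8, rose from a mean of 22.4 to 33.0 CPM (log2 0.56, adjusted p = 1.11e-05) in wild-type ovaries and had means of 23.0 and 24.8 CPM without and with irradiation in the mutant. Its interaction of 0.45 (adjusted p = 0.0216) was 0.45 as well without the 2 libraries high in neutrophil markers, where with fewer libraries the adjusted p was 0.0578. The other 5 genes of the caspase 8 platform were not called.

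Card14, a signalling scaffold with a caspase recruitment domain, rose from 0.958 to 2.44 CPM (log2 1.34, adjusted p = 7.63e-06), with Chek2-/- means of 1.16 and 1.09 CPM and an interaction of 1.42 (adjusted p = 0.00105). Dffb, the nuclease that cuts DNA once caspases release it from its inhibitor, rose from 8.25 to 10.9 CPM (log2 0.40, adjusted p = 0.00219), with Chek2-/- means of 8.80 and 9.10 CPM, and its interaction of 0.35 (adjusted p = 0.155) was called with DESeq2 (0.37, adjusted p = 0.0292). Nlrp6, an inflammasome sensor, fell from 1.16 to 0.126 CPM (log2 −3.08, adjusted p = 0.000244) with 0 to 9 counts in the irradiated libraries. Its Chek2-/- means were 2.43 and 1.31 CPM, and its interaction of −2.19 (adjusted p = 0.108) was called with DESeq2 (−2.23, adjusted p = 0.0262), without irradiated wild-type replicate 5 (−2.72, adjusted p = 0.039) and without non-irradiated Chek2-/- replicate 6 (−2.74, adjusted p = 0.00229). Nlrp6 is also in the study's own list of radiation-responsive genes, which was chosen on these samples. Of the 11 inflammasome genes listed, 1 was called lower and 0 higher, where 2.41% of all genes were called in either direction. Their median log2 change was 0.303. Some of the 11 were close to the limit of detection, such as Nlrp1a (0 to 9 counts in irradiated wild-type libraries) and Nlrp1b (0 to 10). Irradiated wild-type replicate 3, high in neutrophil markers, held the highest level of several of the 11 genes in its group. Its part in this median was not tested.

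Between genotypes without irradiation, 3 of the 37 genes were called higher in Chek2-/- ovaries, where 3.12% of all genes were: Cycs, which encodes cytochrome c (log2 0.41, adjusted p = 0.0419), Xiap, a caspase inhibitor (0.22, adjusted p = 0.0297), and Bcl10 (0.22, adjusted p = 0.0267). These calls did not hold in every fit with a library left out: in the 12 fits without 1 library, Cycs was called in 4, Xiap in 6 and Bcl10 in 9, with adjusted p over all 21 settings of up to 0.107, 0.088 and 0.0698.

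Single-cell libraries located each member among cell types. After filters and removal of called doublets, 9277 and 9779 cells were kept from non-irradiated and irradiated wild-type ovaries, and 8697 and 8771 from Chek2-/- ovaries, with medians of 13908 to 17135 unique molecular identifiers (UMIs) per cell. Any 2 libraries shared 30 to 73 cell barcodes. Clustering gave 9 classes named from marker lists, and not every name held in other clusterings. The cluster led by Actg2, Cnn1 and Myh11, here perivascular smooth muscle-like, was named fibroblast with doublets kept. It was also named fibroblast at Leiden resolution 1 and with at least 2000 genes per cell. The cluster led by haemoglobin genes, here erythroid-like, was named fibroblast with doublets kept and with at least 2000 genes per cell. UMIs were summed per class and library and divided by the class total, in CPM, and every interval is a 95% exact interval for counting error only.

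Casp1 was highest in macrophage-like cells, at 43.9 to 67.0 CPM in the 4 libraries from 49 to 93 cells each, and these cells held 61.4% to 77.1% of its UMIs. At a finer clustering (Leiden resolution 1) there were 152 macrophage-like cells and a separate, unnamed cluster of 149 cells led by Cd52, Srgn and Coro1a, so the class may hold other leukocytes. Endothelial-like cells followed at 1.55 to 2.84 CPM, with 13.04% to 19.61% of its UMIs. In oocyte-like cells, no Casp1 UMI was seen among 28871285 UMIs of the non-irradiated wild-type library, where 3 UMIs would be 0.104 CPM. Each irradiated library held 1 Casp1 UMI in these cells. Macrophage-like cells were also the highest class for Pycard (166 to 191 CPM), ahead of epithelial-like cells (58.4 to 70.1 CPM), pericyte-like cells (50.05 to 54.01 CPM) and granulosa-like cells (19.1 to 20.9 CPM).

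Casp6 was highest in granulosa-like cells, at 111 to 132 CPM, against 56.0 to 95.9 CPM in epithelial-like and 23.1 to 24.2 CPM in fibroblast-like cells. Casp8 was high in macrophage-like (73.6 to 118 CPM), epithelial-like (58.8 to 108 CPM) and endothelial-like cells (70.6 to 74.3 CPM), whose ranges overlap. Casp12 was highest in epithelial-like cells, at 40.8 to 52.8 CPM, with perivascular smooth muscle-like cells next at 20.9 to 29.7 CPM.

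Oocyte-like cells had low levels of several members. They were the lowest class by median for Apaf1 (3.37 to 11.3 CPM, against 30.8 to 35.4 CPM in endothelial-like cells), Casp12 (1.29 to 2.25 CPM), Casp8 (4.97 to 12.2 CPM) and Pycard (2.44 to 61.9 CPM). Casp6 was at 43.1 to 73.1 CPM there, above fibroblast-like cells. Casp2 had its highest median in oocyte-like cells, at 25.5 to 35.8 CPM. This range overlaps those of endothelial-like (22.3 to 26.4 CPM), pericyte-like (15.3 to 29.4 CPM) and epithelial-like cells (17.8 to 26.8 CPM). Casp9 was at 20.7 to 23.3 CPM in granulosa-like cells and at 8.30 to 11.5 CPM in oocyte-like cells.

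**Figure D3:**
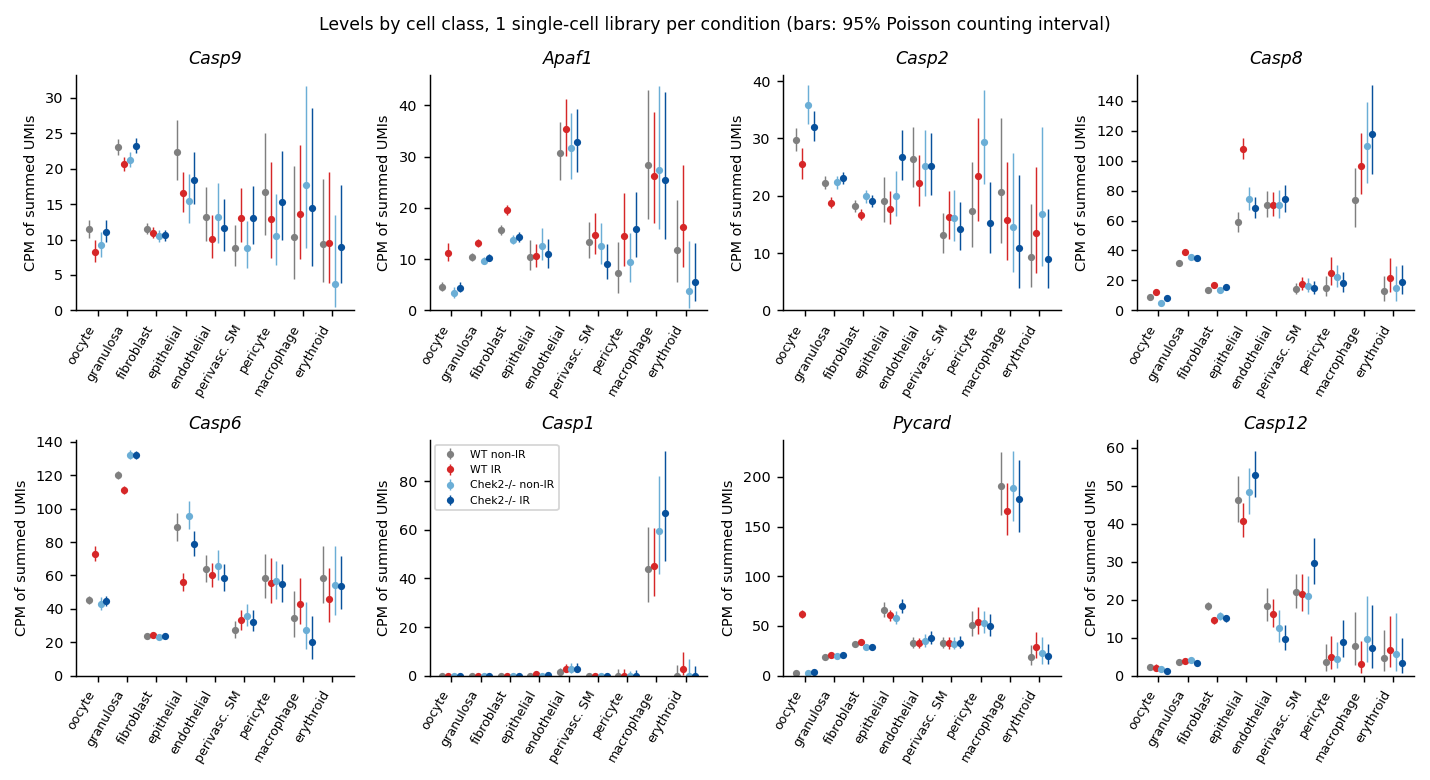
Level of each member (vertical axis, CPM of summed UMIs) in 9 cell classes, 1 point for each single-cell library with its 95% Poisson counting interval. Casp1 is highest in macrophage-like cells, Casp6 peaks in granulosa-like cells at 111 to 132 CPM, and Pycard in oocyte-like cells is high in 1 of 4 libraries.

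The clearest difference after irradiation was that of Pycard in wild-type oocyte-like cells. The study itself names Pycard among the radiation-responsive genes of a subcluster of irradiated wild-type oocytes. That list was made from these same single-cell libraries, so the values here are not independent of it. Pycard was at 3.05 CPM (88 UMIs in 193 cells) in the non-irradiated library. It was at 61.9 CPM (828 UMIs in 170 cells) in the irradiated library, a ratio of 20.3 (interval 16.3 to 25.6). In Chek2-/- oocyte-like cells it was at 2.44 CPM (29 UMIs in 75 cells) and 3.31 CPM (59 UMIs in 138 cells), a ratio of 1.36 (0.856 to 2.19). The irradiated wild-type library was the one library of 4 in which oocyte-like cells were high in Pycard. Oocyte-like cells held 1.98% of all Pycard UMIs of the non-irradiated and 14.3% of the irradiated wild-type library, although their share of all UMIs was 15.5% and 7.52%.

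Apaf1 in wild-type oocyte-like cells was at 4.64 and 11.3 CPM, a ratio of 2.43 (1.91 to 3.09), and in Chek2-/- cells at 3.37 and 4.44 CPM, a ratio of 1.32 (0.889 to 1.98). Casp6 was at 45.1 and 73.1 CPM in wild-type cells, a ratio of 1.62 (1.49 to 1.76), with 1.04 (0.926 to 1.16) in Chek2-/- cells. Pycard, Apaf1 and Casp6 were the members at least 1.5-fold higher in the irradiated wild-type oocyte-like cells, 3 of 7 with a ratio, where 13.3% of genes with at least 50 UMIs were. In Chek2-/- oocyte-like cells Casp8 was the 1 member of 7 past this fold, where 6.91% of genes were.

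Casp8 was higher in the irradiated library of both genotypes, at 9.21 and 12.2 CPM in wild-type (ratio 1.32, 1.08 to 1.61) and at 4.97 and 8.09 CPM in Chek2-/- oocyte-like cells (1.63, 1.19 to 2.24). Casp9 was lower in irradiated wild-type cells, at 11.5 and 8.30 CPM (0.724, 0.579 to 0.900), and had a ratio of 1.21 in Chek2-/- cells. Casp2 ratios were 0.857 (0.754 to 0.973) and 0.896, and the wild-type ratio was 1.09, in the other direction, when each cell weighed equally. With that weighting the wild-type ratios of Casp9 and Apaf1 were 0.461 and 3.67. Casp12 had too few UMIs to resolve a difference (0.963, 0.599 to 1.51). In UMIs summed over the class, the members in oocyte-like cells therefore did not move together. Pycard, Apaf1, Casp6 and Casp8 were higher and Casp9 was lower in the irradiated wild-type library. When these cells were divided by Gdf9, the difference of Casp8 was resolved in neither division. That of Casp9 was resolved only in the division low in Gdf9, as given below.

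Depth per cell differed between these libraries. Median UMIs per oocyte-like cell were 182009 and 15869 in non-irradiated and irradiated wild-type ovaries, and 159208 and 122798 in Chek2-/- ovaries, and their part in the result was not tested. Among the cells of at least 20000 UMIs (153, 79, 67 and 97 cells in the same order) the wild-type ratio was 20.8 for Pycard (16.6 to 26.3), 2.44 for Apaf1 (1.92 to 3.11) and 1.61 for Casp6 (1.48 to 1.75). When those cells were thinned to 20000 UMIs each, leaving out 40, 91, 8 and 41 shallower cells, a Pycard UMI was seen in 4.58% (exact binomial interval 1.86 to 9.20) and 49.4% (37.9 to 60.9) of wild-type cells and in 7.46% and 5.15% of Chek2-/- cells. Unthinned shares were 34.6%, 83.5%, 22.4% and 35.1%. For Apaf1 the thinned shares were 5.88%, 25.3%, 8.96% and 7.22%, again highest in the irradiated wild-type library. Thinned shares of Casp8 were 13.1%, 20.3%, 7.46% and 7.22%. Those of Casp9 were nearly equal, at 16.3%, 16.5%, 16.4% and 16.5%.

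Gdf9, a growth factor made by growing oocytes, was used to divide the oocyte-like cells of at least 20000 UMIs at 1000 CPM, a limit within 20% of which 1 to 6 cells per library lay. Below it (120 non-irradiated and 63 irradiated wild-type cells) Pycard was at 3.56 and 88.6 CPM, a ratio of 24.9 (19.7 to 31.7). At or above it (33 and 16 cells) Pycard was at 0.977 and 17.0 CPM, a ratio of 17.4 (7.63 to 48.7), and the 16 irradiated cells had a median of 2.64 CPM, quartiles of 0 and 15.0 CPM and a highest cell of 73.4 CPM. Apaf1 had ratios of 2.89 (2.22 to 3.77) and 1.76 (0.949 to 3.30) in these divisions, and Casp6 of 1.86 (1.70 to 2.04) and 1.43 (1.13 to 1.80). In Chek2-/- cells below the limit, the ratios were 1.29 for Pycard (0.801 to 2.12), 1.71 for Apaf1 (1.09 to 2.76) and 1.08 for Casp6 (0.951 to 1.22). The wild-type cells below the limit were not matched on every oocyte marker. Zp3 was at 1207 and 2012 CPM there, a ratio of 1.67 (1.63 to 1.70). Ratios of the others were 1.15 for Dppa3, 1.02 for Gdf9, 0.997 for Sycp3 and 0.997 for Figla. The part of the Zp3 difference in the result was not tested.

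Single cells varied widely. Below the Gdf9 limit, the irradiated wild-type cells had a median Pycard level of 54.5 CPM, with quartiles of 23.4 and 135 CPM and a highest cell of 519 CPM, whereas the non-irradiated wild-type cells had a median of 0 and a highest cell of 44.3 CPM. Up to 52 Pycard UMIs were counted in 1 irradiated wild-type cell, against at most 4, 6 and 5 in the non-irradiated wild-type and the 2 Chek2-/- libraries.

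**Figure D4:**
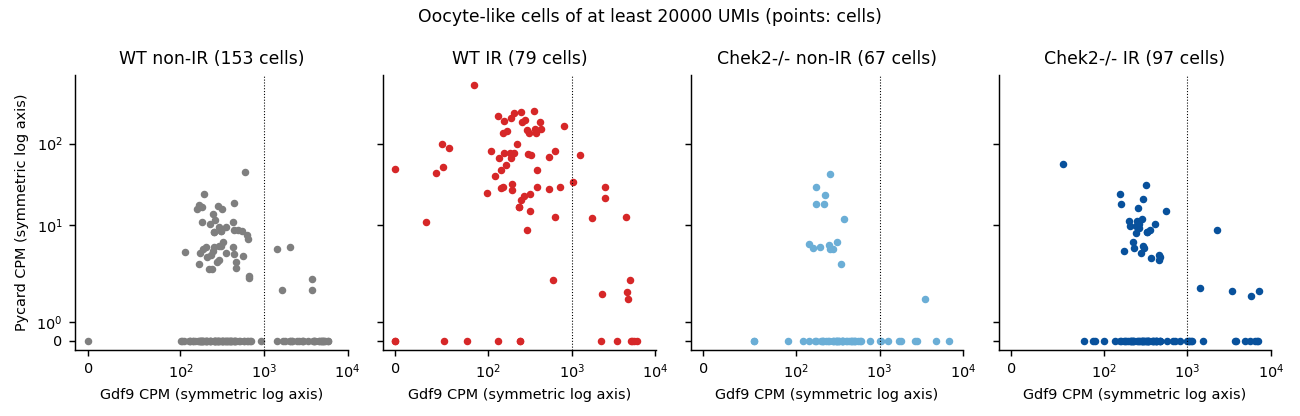
Pycard level (vertical axis, CPM) against Gdf9 level (horizontal axis, CPM, both symmetric log) in single oocyte-like cells of at least 20000 UMIs, 1 panel per library, with a dotted line at the Gdf9 limit of 1000 CPM. Irradiated wild-type cells left of the line have a median of 54.5 CPM Pycard, and the cells of the other 3 libraries lie mostly at 0.

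Partner genes in the same oocyte-like cells differed as widely. Pidd1 was at 1.80 and 24.9 CPM in wild-type cells, a ratio of 13.8 (10.3 to 18.9), with 0.933 in Chek2-/- cells. Dffb had ratios of 4.10 (3.32 to 5.07) and 0.850, and Card14 of 4.46 (3.09 to 6.52) and 1.29. Tnfrsf10b had a ratio of 1.17 in oocyte-like cells, against 1.84 in granulosa-like and 2.47 in fibroblast-like cells of wild-type ovaries.

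Granulosa-like and fibroblast-like cells were the most numerous somatic classes. Apaf1 was at 10.4 and 13.1 CPM in wild-type granulosa-like cells, a ratio of 1.25 (1.14 to 1.38), and at 15.6 and 19.6 CPM in fibroblast-like cells, a ratio of 1.25 (1.15 to 1.36). The Chek2-/- ratios of Apaf1 were 1.06 and 1.04 in these classes. Pycard had wild-type ratios of 1.10 and 1.09 there. No member with a ratio (8 in granulosa-like and 7 in fibroblast-like cells) reached 1.5-fold in these wild-type classes, where 3.8% and 2.02% of genes did. In wild-type granulosa-like cells 3 members had intervals above 1 and 3 below it. Those below were Casp2 (0.843, 0.785 to 0.905), Casp6 (0.927, 0.900 to 0.955) and Casp9 (0.896, 0.837 to 0.960). In wild-type fibroblast-like cells 3 had intervals above 1 and 2 below it, Casp12 (0.796, 0.731 to 0.867) and Casp2 (0.919, 0.847 to 0.998). In Chek2-/- ovaries 1 was above and 1 below in granulosa-like cells, and 1 and 0 in fibroblast-like cells. Counting intervals are narrow in these large classes, so small differences pass. The share of all genes with such intervals was not computed, so these counts are not a result particular to the members.

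Casp8 in epithelial-like cells was the member past this fold in that class, at 58.8 CPM (297 UMIs in 177 cells) without and 108 CPM (881 UMIs in 304 cells) with irradiation in wild-type ovaries, a ratio of 1.84 (1.61 to 2.10). In that class 7.73% of genes were at least 1.5-fold higher. The Chek2-/- ratio was 0.918 (0.795 to 1.06). Granulosa-like cells had Casp8 ratios of 1.23 (1.17 to 1.304) and 0.989 in the 2 genotypes. Casp6 was lower in irradiated epithelial-like cells of both genotypes, with ratios of 0.630 and 0.823. Casp9 had ratios of 0.739 (0.572 to 0.958) in wild-type and 1.19 (0.882 to 1.61) in Chek2-/- epithelial-like cells. With 1 library per condition, these differences cannot be told apart from differences between libraries.

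**Figure D5:**
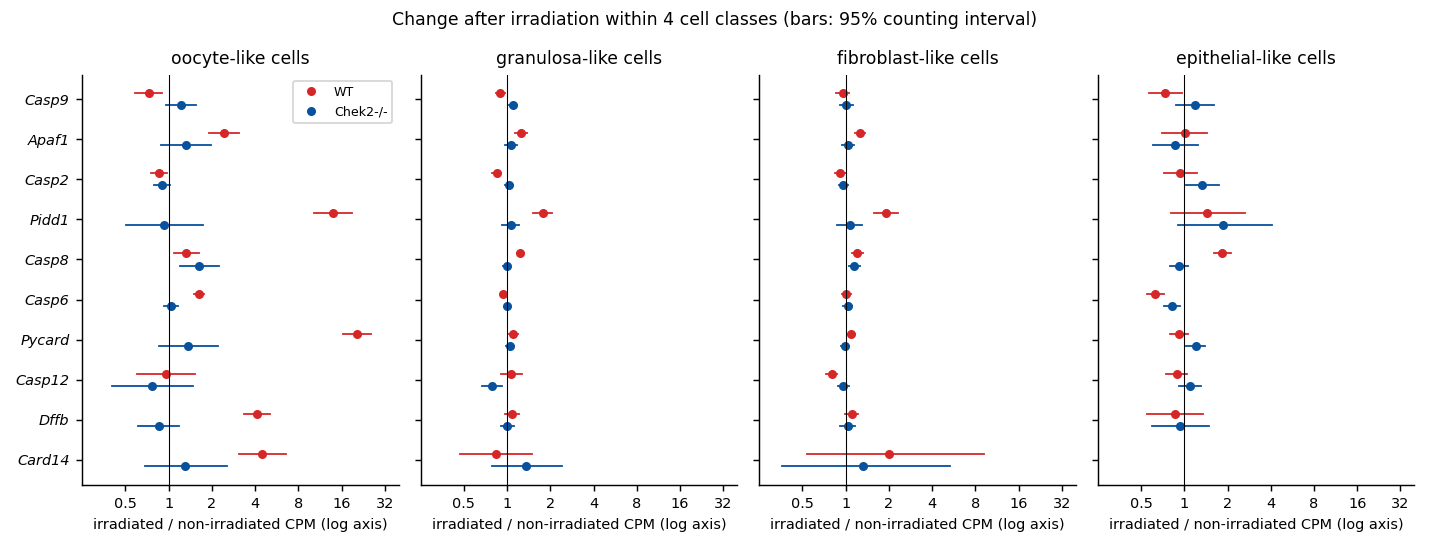
Ratio of irradiated to non-irradiated CPM (horizontal log axis) for 7 members and 3 partner genes in oocyte-, granulosa-, fibroblast- and epithelial-like cells, in wild-type and Chek2-/- ovaries, with 95% counting intervals. Pycard (20.3) and Pidd1 (13.8) stand farthest from 1, in wild-type oocyte-like cells, with Chek2-/- ratios of 1.36 and 0.933.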

How the data were processed

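Bulk poly(A) RNA-seq and 10x single-cell RNA-seq measured RNA of ovaries in 4 conditions. The deposited bulk values are estimated counts per gene, which the authors made with Salmon 1.3.0 after FastQC 0.11.9, Trim Galore 0.6.5 and MultiQC 1.9 (submitters' processing notes). The deposited single-cell values are UMI counts from Cell Ranger, aligned to mm10, before the authors' own cell filters.

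Estimated counts were rounded, genes with under 10 counts over the 24 libraries were removed, and 4 group coefficients were fitted with edgeR 4.0.16 (TMM, quasi-likelihood, R 4.3.3). Called genes had a Benjamini-Hochberg adjusted p of at most 0.05 over 26790 genes. DESeq2 1.42.0 and limma 3.58.1 were alternatives. The procedure was tested on simulated data. Cells with under 1000 genes or over 20% mitochondrial UMIs were removed, doublets were called with Scrublet (4.02% to 5.47% per library), and cells were clustered with scanpy 1.11.5 (Leiden, resolution 0.5). Classes were named from at least 3 markers.

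Named genes were the 8 members, Chek2, every called partner, and the 3 genes most like each called member; some genes of this rule are not reported here. The rule for the members is a list of symbols and uses no measured value, but members, lists and tests were chosen with earlier results of these data known. Same-numbered replicates were not treated as pairs in the main fit: correlations of their deviations ran from 0.00783 to 0.69, and not all were over 0.1. Chek2-/- replicates 3, 4, 5 and 6 (0.471, 0.469, 0.335 and 0.69) and wild-type replicate 5 (0.444) did correlate best with their own number. The labels do not say what the numbers mark, so shared structure between same-numbered libraries is not excluded. No 2 libraries of a group agreed within sampling noise (lowest chi-square per degree of freedom 6.25).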

Additional observations from a re-analysis of the deposited data

Results flagged for a closer look

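In the 32 combinations of a member and a group of 6 bulk libraries, 5 had 1 library set apart from the other 5 by Dixon's test, which chance gives in about 1 in 20 groups. Casp1 was at 1.88 CPM in irradiated wild-type replicate 3, against 0.106 to 0.542 CPM in the others, and this library is high in neutrophil markers. Casp8 was at 52.0 CPM in non-irradiated Chek2-/- replicate 6 (others 36.5 to 41.6) and at 51.1 CPM in irradiated Chek2-/- replicate 6 (others 34.6 to 40.7), the libraries low in oocyte markers. Apaf1 was at 41.5 CPM in non-irradiated wild-type replicate 2 (others 34.7 to 36.9) and at 43.9 CPM in irradiated wild-type replicate 4 (others 49.96 to 51.61), the wild-type library with the highest epithelial marker sum (1087 CPM).

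The change after irradiation differed between wild-type and Chek2-/- ovaries, by the interaction in edgeR, for 1 member, Apaf1 (0.39 on the log2 scale, adjusted p = 0.0127), and for 3 partner genes, Tnfrsf10b (0.45, adjusted p = 0.0216), Pidd1 (1.09, adjusted p = 0.00105) and Card14 (1.42, adjusted p = 0.00105). That is 1 of 8 members and 3 of 37 partner genes, in a comparison where 1.03% of all genes were called.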

How the results depend on the processing

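The call of Apaf1 in wild-type ovaries held under all 21 settings tried that set no minimum fold (log2 0.43 to 0.48, adjusted p 4.99e-11 to 0.00014), and that of its interaction under all 32 of that kind (0.35 to 0.44, adjusted p 0.000483 to 0.0238). Pycard in wild-type ovaries ran from 0.40 to 0.76 with a lowest adjusted p of 0.164, and Casp1 from 0.34 to 1.52 with a lowest of 0.268. Leaving out any 1 library kept all 72 counts of called members, and of called partners in wild-type ovaries, within 1.5 times. With a 2-fold minimum Apaf1 lost both calls: 0 members were called in wild-type ovaries, 0 for the interaction, and 3 partners in wild-type ovaries.

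With the replicate number as a block, 1 member, Casp8, was called between genotypes without irradiation (log2 0.23, adjusted p = 0.0315), as were 2025 of all 26790 genes against 1430 without the block, and no other call on a member changed. Of 1151 gene values recomputed, 1123 stayed on their side of the threshold and none reversed as a call. Of the 28 that changed sides, 21 were Cycs, Xiap or Bcl10 between genotypes. Genes called over the whole table changed by more than 1.5 times with DESeq2 (2423 between genotypes, 458 for the interaction, 14 in Chek2-/- ovaries), with only the compared groups in the fit (785 between genotypes, 1 in Chek2-/- ovaries against 3), and with the 2-fold minimum (1 in Chek2-/- ovaries, 288 in wild-type ovaries, 167 for the interaction and 211 between genotypes). Between genotypes, leaving out 1 library gave 573 to 1794 called genes against 1430, more than 1.5 times fewer without non-irradiated wild-type replicate 2, 3 or 4 (675, 716 and 573) or Chek2-/- replicate 1 (807). Without replicate 6 of both Chek2-/- groups, 1009 genes were called in wild-type ovaries against 646.

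When each wild-type oocyte-like cell weighed equally (chosen after seeing the data), Casp2 reversed, to a ratio of 1.09, and the ratios were 2.14 for Casp6, 0.461 for Casp9, 3.67 for Apaf1 and 15.1 for Pycard. This setting gives the many shallow cells of the irradiated library more weight. Leaving out oocyte clusters of low depth gave nothing to leave out, since the class was 1 cluster. Depth limits Casp1 (3 to 47 counts per bulk library) and Casp12 in oocyte-like cells.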
